A study of Homo sapiens with 37 samples.

Results

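AP-1 is the transcription factor formed when a protein of the FOS family pairs with one of the JUN family. Its genes were examined across 37 libraries of cultured human cells, which were treated or aged as models of senescence, a lasting exit from the cell cycle, or were controls. The 9 genes described here were chosen by name and not by a rule on their values, but with earlier results of these data known. The list holds FOS, FOSB, FOSL1 and FOSL2 of the FOS family and JUN, JUNB and JUND of the JUN family. It also holds BATF and BATF3, which are smaller partners of the JUN proteins. These members are 9 of the 57773 genes counted in each library, and all 9 were found by symbol through their Ensembl identifiers.

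FOS and JUN proteins carry a basic region that grips DNA and a leucine zipper that joins the partners, and most pairs bind a short palindrome named the AP-1 site or TPA response element. FOS, FOSB, JUNB and JUN are immediate-early genes, switched on within minutes of serum, growth factors or stress through the ERK, JNK and p38 kinases, whereas FOSL1 and FOSL2 accumulate later and last longer. In fibroblasts AP-1 is known as an activator of collagenases and other matrix proteases and of inflammatory cytokines, and AP-1 sites are prominent among the enhancers of senescent fibroblasts.

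The libraries came from 4 kinds of cultured human cell. Human aortic endothelial cells (HAEC) at population doubling level (PDL) 4 to 6 were left as controls (2 libraries) or irradiated with 4 Gy (3 libraries), and human umbilical vein endothelial cells (HUVEC) at PDL 3 to 5 were controls (3 libraries) or received 4 Gy (3 libraries). IMR-90 cells, fetal lung fibroblasts, were untreated at PDL15, irradiated with 10 Gy at PDL15, or grown to PDL52, with 2 libraries each. WI-38 cells, another strain of fetal lung fibroblasts, were studied in 2 sets. In the first set, cells at PDL 25 received doxorubicin, a DNA-damaging drug, at 2 µg/mL for 24 h against untreated controls, or a lentivirus at 10 infectious units per cell that carried mutant HRAS (HRASG12V) against one with an empty vector, both followed by puromycin at 1 µg/mL. In the second set the doxorubicin treatment was repeated with its own controls, and other cells received 10 Gy against their own controls. All of these cells were at PDL 25. Cells in replicative exhaustion at PDL 53 to 55 were set against proliferating cells at PDL 25. Every WI-38 group had 2 libraries. Both IMR-90 comparisons used the same 2 libraries at PDL15. The labels do not say whether the libraries of a group came from separate cultures, so a p-value here reflects only how these libraries vary, which may be technical.

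Library totals ran from 102293388 to 202974994 counts in the 25 libraries outside the second WI-38 set and from 205854972 to 370996204 in its 12 libraries. Genes of proteins took 50.7% to 66.9% of the counts in the 25 libraries and 82.0% to 91.1% in the 12, and mitochondrial genes took 0.100% to 0.607% and 3.21% to 14.02%, so levels are compared within a set and are only a description across sets. CPM are counts per 1000000 counts of the library, with the library total scaled within its set. All 7 endothelial markers that matched (PECAM1 did not match) were at 1 CPM or more in the 11 endothelial libraries. Their sum there was 1164 to 1644 CPM, and all 8 fibroblast markers reached 1 CPM in every fibroblast library. Leukocyte markers summed to at most 5.33 CPM and epithelial markers to at most 0.974 CPM in any library. MKI67, a gene of dividing cells, fell in 7 of the 9 comparisons. In IMR-90 cells MKI67 did not fall: it was at 17.4 and 19.8 CPM at PDL15, and rose to 28.0 and 31.3 CPM after radiation (log2 fold change 0.67 ± 0.10, SE, edgeR adjusted p = 7.1e-05), while at PDL52 the log2 fold change was 0.11 ± 0.10 (adjusted p = 0.42). The summed fibroblast markers of IMR-90 cells were also far apart, at 14811 to 15645 CPM at PDL15, 3398 to 3443 CPM after radiation and 5189 to 5507 CPM at PDL52. In these bulk samples, fewer cells of a type and less RNA per cell cannot be told apart.

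The promoters of FOS, FOSB, JUNB and JUN are shown. The first 3 had the highest correlations with each other among the members over the 17 group means, as given further on. JUN was added because it encodes the principal partner of the FOS proteins. The sequences are the 250 bases before the transcription start on the gene's own strand, from RefSeq on GRCh38.p14, while the counts were made on hg19; 7 of the 9 members had an entry. Capitals mark matches on either strand to TGACG, the core of the cyclic AMP response element, or to TGACNTCA, its relaxed full form, and the second can contain the first.
FOS, chr14:75278578-75278827, plus strand: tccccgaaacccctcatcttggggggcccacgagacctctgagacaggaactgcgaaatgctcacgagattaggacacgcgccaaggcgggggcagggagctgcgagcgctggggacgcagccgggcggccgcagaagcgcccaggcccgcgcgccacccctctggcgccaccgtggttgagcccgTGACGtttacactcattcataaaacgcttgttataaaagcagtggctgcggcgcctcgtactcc
FOSB, chr19:45467746-45467995, plus strand: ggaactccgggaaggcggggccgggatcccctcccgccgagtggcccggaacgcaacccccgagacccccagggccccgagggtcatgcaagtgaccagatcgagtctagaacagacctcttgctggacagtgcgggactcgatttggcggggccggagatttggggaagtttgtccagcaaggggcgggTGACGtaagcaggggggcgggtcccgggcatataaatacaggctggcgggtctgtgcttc
JUNB, chr19:12791236-12791485, plus strand: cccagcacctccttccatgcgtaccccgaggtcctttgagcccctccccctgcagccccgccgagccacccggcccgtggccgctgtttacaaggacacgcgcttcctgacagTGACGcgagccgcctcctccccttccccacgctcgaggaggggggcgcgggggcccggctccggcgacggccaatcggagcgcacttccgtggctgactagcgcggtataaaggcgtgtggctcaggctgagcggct
JUN, chr1:58784048-58784297, minus strand: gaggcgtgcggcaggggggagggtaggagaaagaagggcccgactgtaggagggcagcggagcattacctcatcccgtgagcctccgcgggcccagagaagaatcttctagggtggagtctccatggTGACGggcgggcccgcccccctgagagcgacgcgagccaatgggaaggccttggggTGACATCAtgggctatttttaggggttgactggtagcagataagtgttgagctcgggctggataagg

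TGACG was found in 21.2% of 35116 promoters of this length and in 6 of the 7 members with an entry, all but BATF. Counted from the start, where -1 is the base just before it, the match lay at -64 to -60 in FOS, -60 to -56 in FOSB, -137 to -133 in JUNB and -123 to -119 in JUN. JUN also held TGACATCA at -67 to -60, and JUND held the full palindrome TGACGTCA at -200 to -193. The relaxed form TGACNTCA was in 6.87% of all promoters. TATAA, the core of the TATA box, was in 18.9% of promoters and in those of FOS, FOSB, JUNB and JUND, between -34 and -25 in each. The AP-1 site TGACTCA (4.20% of promoters) and the CArG box (1.16%), which binds serum response factor, had no match in these 7 windows. Bases further upstream were not searched. These are matches of letters and not measured binding sites.

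JUN was the most abundant member in 11 of the 17 groups when counts were set per length. On the scale of CPM per kilobase of exon, JUN took 58.7% ± 0.31 (SD, n = 2) of the summed level of the 9 genes in control HAEC, 52% ± 0.54 (n = 3) in control HUVEC, 36.8% ± 1.3 (n = 2) in untreated WI-38 cells of the first doxorubicin experiment and 46.8% ± 1.4 (n = 2) with mutant HRAS. Other members led in 6 groups by the group mean. JUNB held 43.9% ± 1.9 (n = 2) in IMR-90 cells at PDL15, against 14.9% for JUN. JUND held 35.9% ± 7.1 (n = 2) in the controls of the repeated doxorubicin experiment and 28.3% ± 0.47 (n = 2) in proliferating WI-38 cells. In replicate 1 of the proliferating cells JUN was ahead, at 28.2% against 28.0% for JUND. FOSL1 held 37.1% ± 3.6 in the controls of the WI-38 radiation experiment, 25.1% ± 2.4 after radiation and 43.0% ± 4.5 in replicative exhaustion (n = 2 each). The lead in the irradiated cells was small, with JUN at 22.3%. In replicate 2 of the irradiated cells JUN was ahead, at 23.9% against 23.4% for FOSL1. FOS held at most 11.1% ± 11 of the sum in any group (n = 2) and FOSB at most 5.77% ± 6.9 (n = 2), both with doxorubicin in the repeat, where replicate 2 alone held 18.9% and 10.6%. BATF took at most 0.12% in any group. The shares of FOS and FOSB depend on the length used. Their exons cover 3238 and 5553 bases, and their longest transcripts 2158 and 3775 bases.

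**Figure D1:**
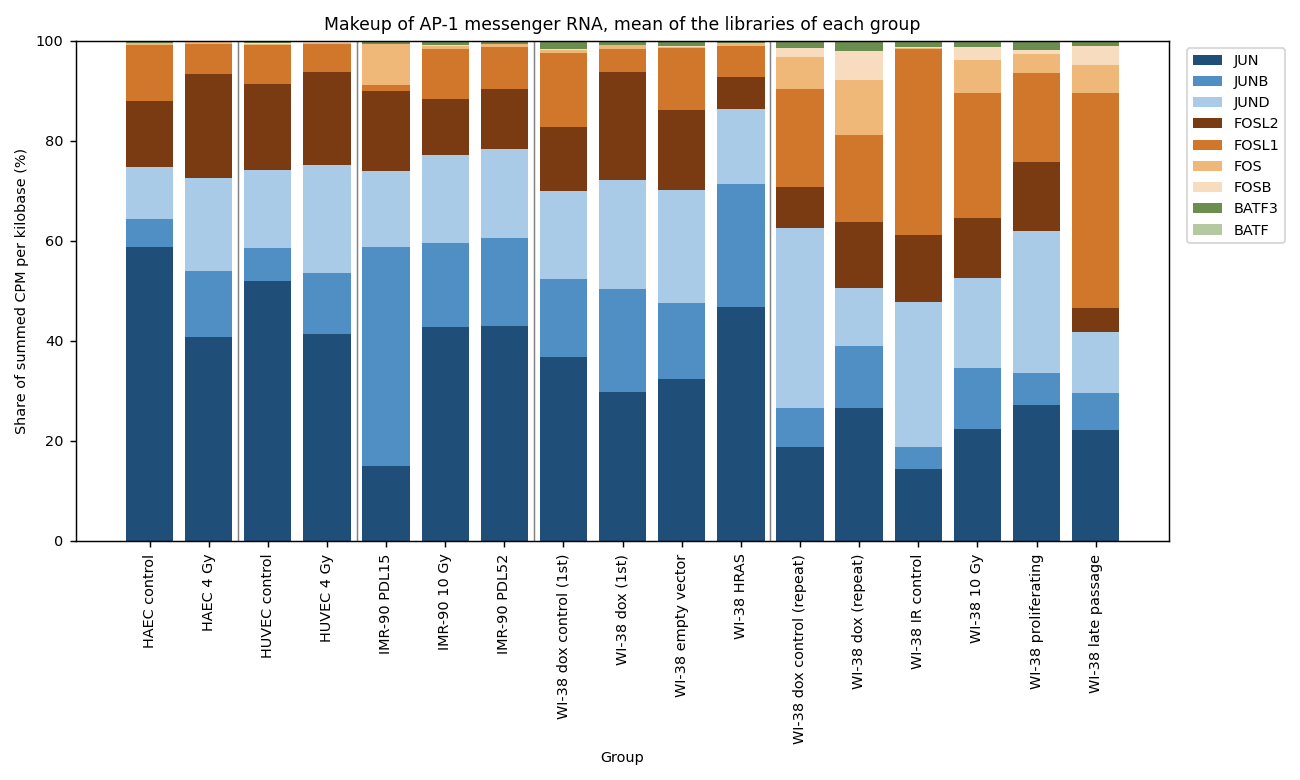
Mean share (%, vertical axis, 0 to 100) of each AP-1 gene in the summed level of the 9 genes, as CPM per kilobase of exon, in each of the 17 groups (horizontal axis); vertical lines part the sets of libraries. JUNB makes the largest band at PDL15 in IMR-90 cells (43.9%) and FOSL1 in exhausted WI-38 cells (43.0%).

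The JUN family made up 61.9% to 86.4% of the AP-1 messenger RNA in 13 of the groups. It was highest with mutant HRAS, at 86.4% ± 0.53, against 70.1% ± 0.94 with the empty vector (n = 2 each). It was lowest in exhausted WI-38 cells, at 41.7% ± 1.6, where the FOS family held 57.3% ± 2.0 (n = 2), against 61.9% and 36.3% in proliferating cells. Irradiated HAEC and HUVEC kept the JUN family close to its control share (74.7% and 72.6% in HAEC, 74.2% and 75.2% in HUVEC), although JUN itself fell to 40.8% and 41.4% of the sum while JUNB and JUND took larger shares.

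**Figure D2:**
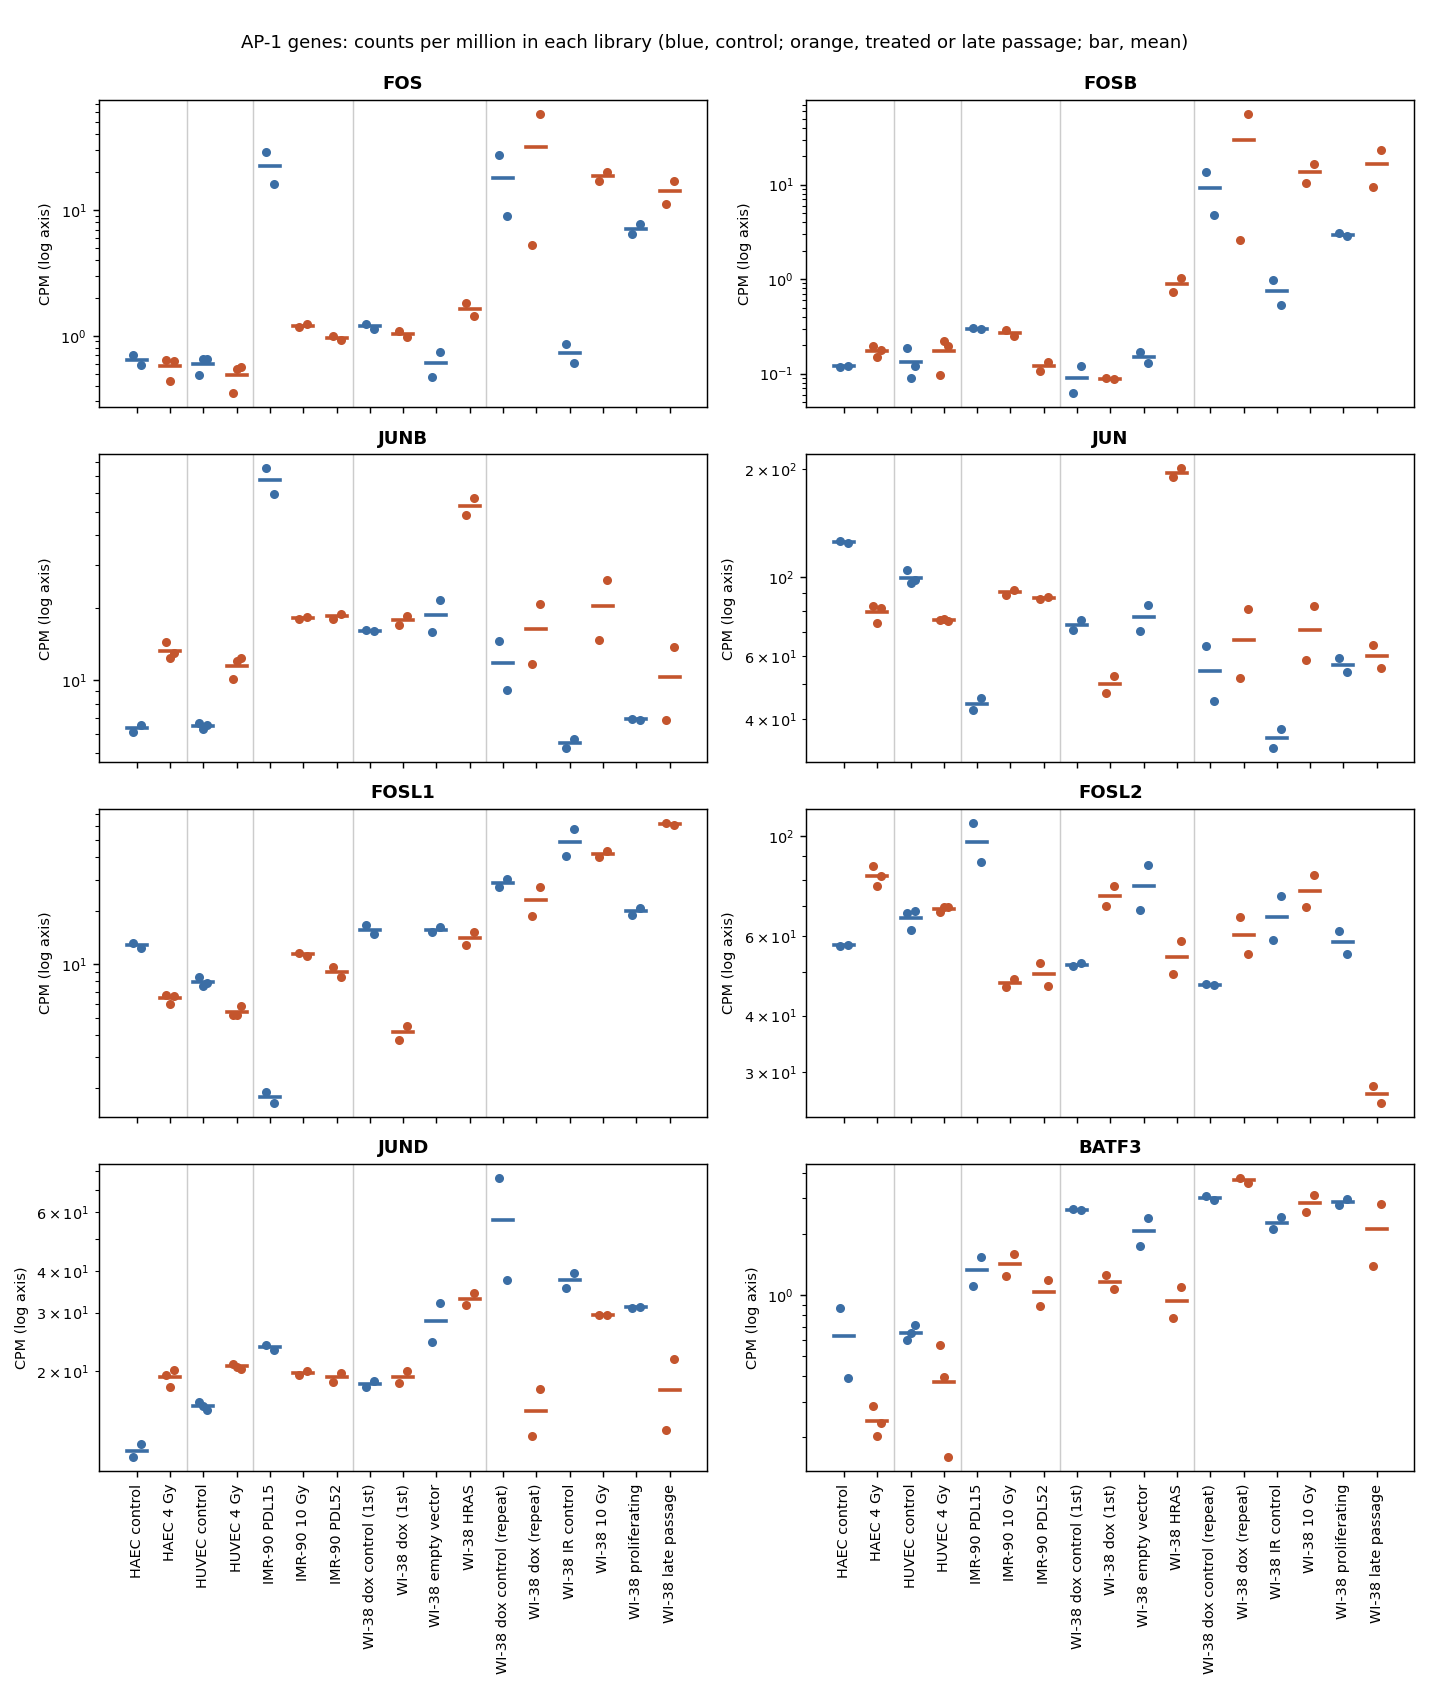
CPM of 8 AP-1 genes in each of the 37 libraries (points, log axis), by group (horizontal axis), with blue for control and orange for treated or late-passage libraries and a bar at each group's mean; BATF is left out because it was at 0 counts in 19 libraries. FOS spans from 0.347 CPM in an irradiated HUVEC library to 58.4 CPM in a doxorubicin-treated WI-38 library, while FOSL2 stays between 25.7 and 107 CPM.

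Each treated group was set against its own control with edgeR's quasi-likelihood test on the counts, and a gene was called changed at a Benjamini-Hochberg adjusted p under 0.05 over all genes tested. In irradiated HAEC, 6 of the 8 members tested were called, 3 higher and 3 lower, where 39.7% of all genes were called, 19.7% higher and 19.9% lower. In irradiated HUVEC, 5 of 8 were called, 2 higher and 3 lower (38.7% of all genes, 18.6% higher and 20.1% lower). In irradiated IMR-90 cells, 6 of 8 were called, 2 higher and 4 lower (49.1% of all genes, 26.6% higher and 22.5% lower), and at PDL52 7 of 8, 2 higher and 5 lower (50.1%, 26.6% and 23.5%). The first doxorubicin experiment called 4 of 9 members, 1 higher and 3 lower (26.8%, 13.6% and 13.2%), and mutant HRAS called 7 of 9, 5 higher and 2 lower (45.9%, 27.1% and 18.9%). In the second WI-38 set the calls were 1 of 8, lower, for the repeated doxorubicin treatment (5.45% of all genes, 3.18% higher and 2.26% lower), 4 of 8, all higher, for radiation (15%, 8.89% and 6.09%) and 2 of 8, 1 each way, for replicative exhaustion (12.6%, 5.8% and 6.82%). The share of members called was above the share of all genes in each comparison, but with so few members each count is a description.

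**Figure D3:**
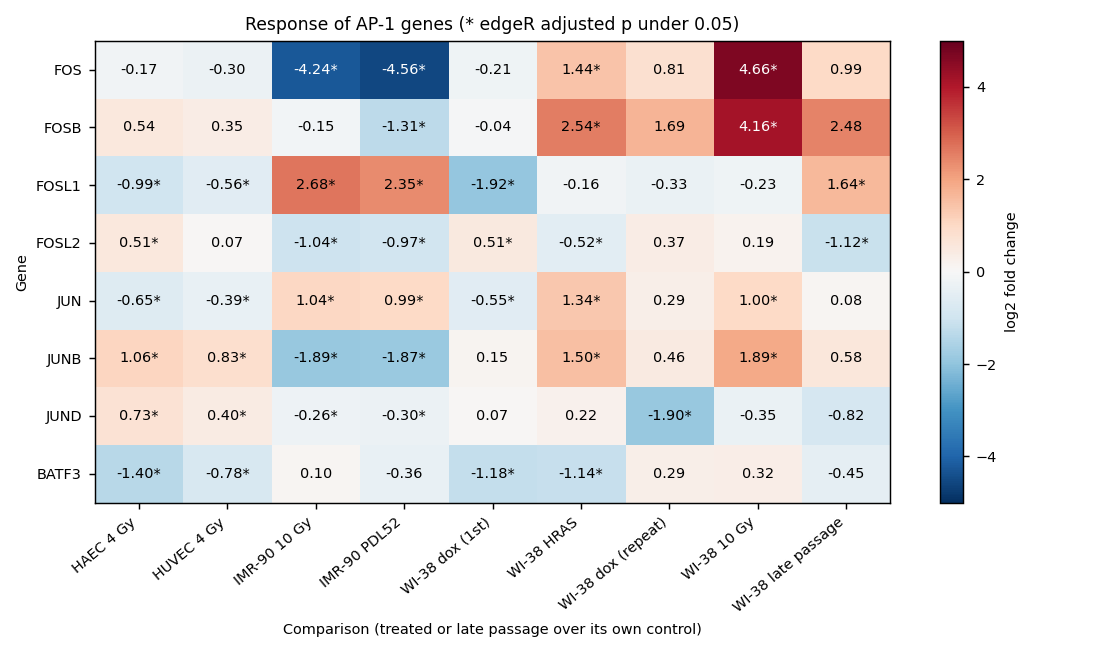
Log2 fold change (colour and number) of 8 AP-1 genes (rows) in the 9 comparisons (columns), treated or late-passage cells over their own control; an asterisk marks an edgeR adjusted p under 0.05. No row has one colour throughout: JUNB runs from -1.89 in irradiated IMR-90 cells to 1.89 in irradiated WI-38 cells, and BATF3 has called changes only downward.

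No member was called in the same direction in all 9 comparisons. JUN was called higher in 4 and lower in 3, JUNB higher in 4 and lower in 2, FOSL1 higher in 3 and lower in 3, and FOSL2 higher in 2 and lower in 4. JUND was called higher in 2 and lower in 3, FOS higher in 2 and lower in 2, and FOSB higher in 2 and lower in 1. BATF3 was called lower in 4 and higher in 0 comparisons, and BATF was high enough to test in 2 of the 9 and called higher in 1. With all 37 libraries in 1 fit, 7 of these calls were lost (adjusted p from 0.059 to 0.53): JUN, JUND and BATF3 in irradiated HUVEC, JUND at both IMR-90 endpoints, FOSB at PDL52 and FOS with mutant HRAS.

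FOS, the founding immediate-early member, was called in opposite directions in IMR-90 and WI-38 cells. In IMR-90 cells at PDL15 it was at 29.2 and 16.1 CPM, against 1.17 and 1.24 CPM after radiation and 0.990 and 0.925 CPM at PDL52. Both PDL15 libraries lay far above all 4 others. FOS fell by 4.24 ± 0.23 on the log2 scale after radiation (SE, edgeR adjusted p = 2.0e-09) and fell by 4.56 ± 0.23 at PDL52 (adjusted p = 1.3e-09). The 2 comparisons share the PDL15 libraries.

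In WI-38 cells irradiated with 10 Gy, FOS moved the other way. The controls were at 0.867 and 0.603 CPM and the irradiated libraries at 17.1 and 20.1 CPM, so the groups were far apart. FOS rose by 4.66 ± 0.82 on the log2 scale (adjusted p = 0.0013). These 2 controls were the lowest untreated libraries of the second WI-38 set: the other 4 untreated libraries held 6.43, 7.74, 9.0 and 27.3 CPM. The radiation controls also held the most MKI67 of the set, at 189 to 213 CPM. Untreated cells of the doxorubicin repeat held 28.4 to 43.9 CPM of MKI67 and proliferating cells 38.0 to 46.5 CPM. The part of this difference in the radiation results was not tested. With all 6 untreated libraries of the set as the control, an alternative chosen after seeing the data, the irradiated cells kept their 4 member calls.

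The same set held the most uneven pair. With doxorubicin in the repeat, FOS was at 5.27 CPM in replicate 1 and 58.4 CPM in replicate 2, against 27.3 and 9.0 CPM in its controls. The groups overlapped, and the log2 fold change was 0.81 ± 0.70 (adjusted p = 0.60). Replicate 2 also exceeded replicate 1 by over 2-fold in 6 of 23 listed immediate-early genes and was lower by that much in 0, where 1.26% and 1.02% of the 15917 genes at 1 CPM did so. The part of this difference between the 2 libraries in the result was not tested. Without replicate 1, FOS was called higher (1.68, adjusted p = 0.041), and with all 6 untreated libraries as control it was 2.80 (adjusted p = 0.0022). In replicative exhaustion FOS was at 11.1 and 17 CPM against 6.43 and 7.74 CPM in proliferating cells, which do not overlap, with a log2 fold change of 0.99 ± 0.70 (adjusted p = 0.42), and it was called against all 6 untreated libraries (1.63, adjusted p = 0.044).

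FOS rose with mutant HRAS. The empty-vector libraries were at 0.468 and 0.739 CPM and the HRAS libraries at 1.82 and 1.44 CPM (log2 fold change 1.44 ± 0.27, adjusted p = 8.6e-04), a call lost with all 37 libraries in 1 fit (1.30, adjusted p = 0.095). HRAS itself stood at 36.1 and 47.0 CPM with the empty vector and at 1944 and 1989 CPM with the mutant, as its label says. In endothelial cells FOS was low throughout, from 0.347 to 0.698 CPM over 11 libraries, and was called in neither experiment. The first doxorubicin experiment held FOS at 1.25 and 1.14 CPM untreated and 1.10 and 0.969 CPM treated, with a log2 fold change of -0.21 ± 0.26 (adjusted p = 0.61).

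FOSB, a close relative of FOS with the same early induction, was below 0.4 CPM in all 23 libraries outside the HRAS group and the second WI-38 set. With mutant HRAS it was at 0.725 and 1.04 CPM against 0.171 and 0.128 CPM with the empty vector, without overlap. It rose by 2.54 ± 0.44 on the log2 scale (adjusted p = 5.7e-04). In irradiated WI-38 cells FOSB was at 10.5 and 16.6 CPM against 0.971 and 0.538 CPM and rose by 4.16 ± 0.97 (adjusted p = 0.0092). Both changes went with those of FOS.

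The other FOSB values were less certain. In exhausted WI-38 cells it was at 9.40 and 23.5 CPM against 3.07 and 2.83 CPM, without overlap, and the log2 fold change of 2.48 ± 0.89 missed the threshold (adjusted p = 0.089). It was called without exhausted replicate 1 (3.03, adjusted p = 0.026) and against all 6 untreated libraries (2.59, adjusted p = 0.0091). In the doxorubicin repeat FOSB was at 2.61 and 56.2 CPM in the treated libraries, with replicate 2 the high one as for FOS, against 13.5 and 4.80 CPM (log2 fold change 1.69 ± 0.86, adjusted p = 0.31). It was called without treated replicate 1 (2.62, adjusted p = 0.0080) and against all 6 untreated libraries (3.43, adjusted p = 0.0021). At PDL52 in IMR-90 cells FOSB was at 0.107 and 0.134 CPM against 0.304 and 0.295 CPM and fell by 1.31 ± 0.43 on the log2 scale (adjusted p = 0.021). That call was lost without either PDL15 library or without PDL52 replicate 1 (adjusted p from 0.064 to 0.095).

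FOSL1, which encodes FRA-1, was called higher in 3 comparisons and lower in 3. In IMR-90 cells it was at 1.89 and 1.66 CPM at PDL15, 11.6 and 11.2 CPM after radiation and 9.62 and 8.47 CPM at PDL52. It rose by 2.68 ± 0.11 on the log2 scale after radiation (adjusted p = 1.1e-10) and by 2.35 ± 0.11 at PDL52 (adjusted p = 4.0e-10). FOSL1 thus went opposite to FOS in these cells, while the fibroblast markers and MKI67 differed as given above; their part in the result was not tested.

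Exhausted WI-38 cells held the most FOSL1 of all groups, at 62.6 and 61.3 CPM against 19 and 20.7 CPM in proliferating cells. The rise was 1.64 ± 0.22 on the log2 scale (adjusted p = 1.9e-04), 3.12-fold. Doxorubicin lowered it in the first experiment, from 16.6 and 14.7 CPM to 3.75 and 4.51 CPM (fell by 1.92 ± 0.16, adjusted p = 2.5e-06). In the repeat the controls were at 27.1 and 30.4 CPM and the treated libraries at 18.7 and 27.2 CPM, which overlap, with a log2 fold change of -0.33 ± 0.22 (adjusted p = 0.46). FOSL1 was not called in irradiated WI-38 cells (40.2 and 43.4 CPM against 40.6 and 57.6 CPM) or with mutant HRAS (12.8 and 15.2 CPM against 15.2 and 16.2 CPM, 95% interval of the log2 fold change -0.49 to 0.16).

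Both endothelial cell types lost FOSL1 after radiation. HAEC went from 13.2 and 12.4 CPM to 6.71, 5.95 and 6.62 CPM, a fall of 0.99 ± 0.074 on the log2 scale (adjusted p = 7.4e-10). HUVEC went from 8.48, 7.54 and 7.87 CPM to 5.18, 5.19 and 5.84 CPM, a fall of 0.56 ± 0.079 (adjusted p = 2.3e-06). All irradiated libraries lay below all controls of their cell type. FOSL1, with 1887 exon bases, shares 412 bases at 95% identity or more with the pseudogene FOSL1P1, which was at 0.00736 to 0.359 CPM. Reads of the shared bases could be placed on either gene, and their number is not known.

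FOSL2, which encodes FRA-2, was well expressed in every library and changed the least in size, between -1.12 and 0.51 on the log2 scale. In IMR-90 cells it was at 107 and 87.3 CPM at PDL15, 46.2 and 48.2 CPM after radiation and 52.4 and 46.5 CPM at PDL52. It fell by 1.04 ± 0.086 (adjusted p = 1.8e-07) and 0.97 ± 0.086 (adjusted p = 3.6e-07). In exhausted WI-38 cells it was at 27.9 and 25.7 CPM, the lowest of all 17 groups, against 61.5 and 54.9 CPM, and fell by 1.12 ± 0.19 (adjusted p = 0.0011). FOSL1 rose and FOSL2 fell in all 3 of these comparisons.

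Irradiated HAEC gained FOSL2, from 57.1 and 57.2 CPM to 85.9, 77.4 and 81.4 CPM (0.51 ± 0.041, adjusted p = 2.6e-09). In HUVEC the controls held 67.4, 61.8 and 68.0 CPM and the irradiated cells 67.9, 69.6 and 69.4 CPM, and FOSL2 was not called, with a 95% interval of -0.014 to 0.15 on the log2 scale. Doxorubicin in the first experiment took it from 51.4 and 52.2 CPM to 69.8 and 77.3 CPM, a rise of 0.51 ± 0.14 (adjusted p = 0.021) that was lost when any 1 of the 4 libraries was left out. Mutant HRAS took it from 68.4 and 86.3 CPM to 49.5 and 58.6 CPM, a fall of 0.52 ± 0.14 (adjusted p = 0.011) that was lost without HRAS replicate 1 (adjusted p = 0.12). FOSL2 was not called in the doxorubicin repeat (66.1 and 54.7 CPM against 46.9 and 46.6 CPM) or in irradiated WI-38 cells (69.6 and 81.7 CPM against 58.9 and 73.7 CPM).

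The balance of the 2 later FOS-family genes differed accordingly. Per kilobase, the ratio of FOSL1 to FOSL2 was 0.0697 ± 0.0034 at PDL15 in IMR-90 cells, 0.917 ± 0.053 after radiation and 0.693 ± 0.0037 at PDL52 (SD, n = 2 each). In WI-38 cells it was 1.30 ± 0.19 in proliferating and 8.78 ± 0.40 in exhausted cells, while in the first doxorubicin experiment it was 1.15 ± 0.11 untreated and 0.213 ± 0.012 treated (n = 2 each). The endothelial ratio was 0.847 ± 0.040 in control and 0.299 ± 0.0088 in irradiated HAEC, and 0.459 ± 0.019 and 0.297 ± 0.019 in HUVEC. With the empty vector the ratio was 0.776 ± 0.092 and with mutant HRAS 0.983 ± 0.0017. It was 2.33 ± 0.20 untreated and 1.48 ± 0.57 treated in the doxorubicin repeat. In the WI-38 radiation experiment it was 2.79 ± 0.25 in controls and 2.10 ± 0.13 in irradiated cells (n = 2 each). No treated library overlapped its controls in any of the 9 comparisons, which is only a description with so few libraries in a group.

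JUN, the principal partner of the FOS proteins, was lower in both irradiated endothelial cell types. HAEC went from 126 and 124 CPM to 82.6, 74.3 and 81.9 CPM (fell by 0.65 ± 0.041 on the log2 scale, adjusted p = 4.0e-11), and HUVEC from 104, 95.8 and 97.6 CPM to 75.9, 76.2 and 75.3 CPM (fell by 0.39 ± 0.038, adjusted p = 6.5e-09). In IMR-90 cells JUN went from 42.2 and 45.8 CPM to 89.1 and 92.0 CPM after radiation and 86.6 and 87.8 CPM at PDL52. The rises of 1.04 ± 0.059 (adjusted p = 3.6e-09) and 0.99 ± 0.059 (adjusted p = 5.9e-09) were close to 2-fold.

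Mutant HRAS gave the highest JUN of all groups, 190 and 201 CPM against 70.6 and 83.6 CPM with the empty vector (1.34 ± 0.13, adjusted p = 5.9e-06). Irradiated WI-38 cells held 58.4 and 83.1 CPM against 33.2 and 37.5 CPM, a rise of 1.00 ± 0.25 (adjusted p = 0.013) that was lost without irradiated replicate 2 (0.72, adjusted p = 0.095) or control replicate 1 (0.92, adjusted p = 0.11). Doxorubicin in the first experiment lowered JUN from 71.0 and 75.5 CPM to 47.3 and 52.9 CPM (fell by 0.55 ± 0.13, adjusted p = 0.0077), a call lost without treated replicate 1 or control replicate 2 (adjusted p = 0.12 and 0.075). JUN was not called in the doxorubicin repeat (52.1 and 81.3 CPM against 64.0 and 45.0 CPM) or in exhaustion (64.3 and 55.6 CPM against 59.3 and 54.3 CPM), where the groups overlapped.

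JUNB, a weaker activator than JUN that can oppose it, rose in irradiated HAEC, from 6.11 and 6.55 CPM to 14.3, 12.3 and 12.9 CPM (1.06 ± 0.078, adjusted p = 5.8e-10). In HUVEC it rose from 6.62, 6.29 and 6.53 CPM to 10.2, 12 and 12.4 CPM (0.83 ± 0.074, adjusted p = 1.8e-09). JUNB thus rose where JUN fell in both endothelial cell types, and the ratio of JUNB to JUN per kilobase was 0.0984 ± 0.0057 in control and 0.322 ± 0.016 in irradiated HAEC, and 0.127 ± 0.0035 and 0.295 ± 0.031 in HUVEC. In IMR-90 cells the order was reversed: JUNB was at 75.5 and 59.3 CPM at PDL15, 18 and 18.3 CPM after radiation and 17.9 and 18.8 CPM at PDL52, falls of 1.89 ± 0.093 and 1.87 ± 0.093 (adjusted p = 8.1e-10 and 8.6e-10).

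In WI-38 cells JUNB rose with mutant HRAS, from 15.8 and 21.5 CPM to 48.6 and 56.9 CPM (1.50 ± 0.16, adjusted p = 1.3e-05), and after radiation, from 5.23 and 5.73 CPM to 14.6 and 26.0 CPM (1.89 ± 0.37, adjusted p = 0.0030). It was called in neither doxorubicin experiment, at 17 and 18.5 CPM against 16.1 and 15.9 CPM in the first and 11.7 and 20.8 CPM against 14.6 and 9.09 CPM in the repeat. Nor was it called in exhaustion, where the 2 libraries were at 6.87 and 13.7 CPM against 6.92 and 6.82 CPM. The WI-38 radiation controls had the lowest mean JUNB of all groups. Exons of JUNB overlap those of HOOK2 on the other strand by 259 bases. HOOK2 was at 3.67 to 20.8 CPM and was called in the same direction as JUNB in all 4 radiation comparisons and at PDL52, and strand use in the counting is not given in the sources used here, so reads of the shared bases cannot be told apart.

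JUND, the most steadily expressed JUN gene in many tissues, rose in irradiated HAEC from 11 and 12.1 CPM to 19.5, 17.9 and 20.2 CPM (0.73 ± 0.064, adjusted p = 8.8e-09) and in HUVEC from 16.1, 15.7 and 15.3 CPM to 21.1, 20.7 and 20.4 CPM (0.40 ± 0.048, adjusted p = 2.3e-07). No irradiated library overlapped a control. In IMR-90 cells it was at 23.9 and 23.2 CPM at PDL15 against 19.4 and 19.99 CPM after radiation and 18.6 and 19.8 CPM at PDL52, small falls of 0.26 ± 0.065 (adjusted p = 0.0043) and 0.30 ± 0.065 (adjusted p = 0.0016). The first of these was lost without irradiated replicate 1 (adjusted p = 0.062).

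The largest change of JUND came with doxorubicin in the repeat, where the controls were at 76.3 and 37.5 CPM and the treated libraries at 12.8 and 17.6 CPM. It fell by 1.90 ± 0.31 on the log2 scale (adjusted p = 0.0021) and was the single member called there. In the first doxorubicin experiment JUND was at 17.9 and 18.8 CPM untreated and 18.5 and 20.1 CPM treated, with a log2 fold change of 0.07 ± 0.15 (adjusted p = 0.77). JUND was not called with mutant HRAS (31.7 and 34.4 CPM against 24.5 and 32.1 CPM), but was without empty-vector replicate 2 (0.34, adjusted p = 0.032) and with the replicate number as a block (0.23, adjusted p = 0.043). Nor was it called in irradiated WI-38 cells (29.5 and 29.4 CPM against 35.5 and 39.4 CPM). In exhausted cells it was at 13.3 and 21.8 CPM against 31 and 31.2 CPM, a log2 fold change of -0.82 ± 0.30 that missed the threshold (adjusted p = 0.090) and passed it without exhausted replicate 2 (-1.22, adjusted p = 0.032) and against all 6 untreated libraries (-1.20, adjusted p = 0.0042).

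BATF, known mainly from lymphocytes, was at 0 counts in 19 of 37 libraries and had at most 26 counts in any. The highest library was HRAS replicate 1 at 0.18 CPM, followed by HRAS replicate 2 at 0.0996 CPM, while both empty-vector libraries were at 0 counts. Set against a floor of 3 counts per library, BATF was at least 7.26-fold higher with mutant HRAS. The call (edgeR adjusted p = 0.0046) was lost without HRAS replicate 1 (adjusted p = 0.054). Leukocyte markers summed to 0.697 and 0.767 CPM in these 2 libraries.

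BATF3, a dimer partner of JUN proteins known from dendritic cells, was called only downward. It fell in the first doxorubicin experiment, from 2.64 and 2.62 CPM to 1.26 and 1.07 CPM (by 1.18 ± 0.23 on the log2 scale, adjusted p = 0.0027), and with mutant HRAS, from 1.74 and 2.39 CPM to 0.774 and 1.10 CPM (by 1.14 ± 0.24, adjusted p = 0.0020). The endothelial falls were less firm. HAEC went from 0.862 and 0.392 CPM to 0.286, 0.202 and 0.236 CPM (fell by 1.40 ± 0.34, adjusted p = 0.0024), which was lost without control replicate 1 (adjusted p = 0.26). HUVEC went from 0.604, 0.650 and 0.713 CPM to 0.569, 0.398 and 0.160 CPM (fell by 0.78 ± 0.30, adjusted p = 0.041), which was lost in 5 of the 6 refits with 1 library left out (adjusted p from 0.059 to 0.21). BATF3 was not called in the other 5 comparisons, in IMR-90 cells and the second WI-38 set, where its log2 fold change lay between -0.45 and 0.32.

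Differences between responses were tested directly in joint fits. Mutant HRAS and doxorubicin, compared within the first WI-38 set, differed in 7 of 9 members, 6 higher and 1 lower, where 35.6% of all genes did, 21.6% higher and 14% lower. The HRAS response was the higher one for FOS by 1.65 ± 0.37 on the log2 scale (adjusted p = 0.0045), FOSB by 2.59 ± 0.68 (adjusted p = 0.011), FOSL1 by 1.76 ± 0.21 (adjusted p = 7.0e-05), JUN by 1.89 ± 0.18 (adjusted p = 1.2e-05), JUNB by 1.35 ± 0.22 (adjusted p = 6.3e-04) and BATF, and the lower one for FOSL2, by -1.02 ± 0.20 (adjusted p = 0.0022). The JUN response was opposite in sign in the 2 treatments, each called. The FOSB difference was lost without doxorubicin control replicate 2 (adjusted p = 0.074), and those of FOS and FOSB with all 37 libraries in 1 fit (adjusted p = 0.19 and 0.24).

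Within the second WI-38 set, the responses to radiation and to replicative exhaustion differed in 3 of 8 members, 2 higher and 1 lower (6.26% of all genes, 4.25% higher and 2.01% lower). The radiation response was lower for FOSL1, by -1.87 ± 0.31 (adjusted p = 0.0018), and higher for FOSL2, by 1.31 ± 0.26 (adjusted p = 0.0075), and for FOS, by 3.66 ± 1.0 (adjusted p = 0.048). The FOS difference was lost without either radiation control, without exhausted replicate 1 or without proliferating replicate 2 (adjusted p from 0.061 to 0.079), with DESeq2 (adjusted p = 0.071) and with its size factors in edgeR (adjusted p = 0.055). The FOSL2 difference was lost without radiation control replicate 1 or proliferating replicate 1 (adjusted p = 0.067 and 0.073). A difference in JUNB was called without irradiated replicate 1 (1.60, adjusted p = 0.042) or exhausted replicate 2 (1.90, adjusted p = 0.029). In IMR-90 cells the irradiated and PDL52 libraries differed from each other in 1 of 8 members (10.6% of all genes, 5.12% higher and 5.45% lower), FOSL1, which was higher after radiation by 0.33 ± 0.095 (adjusted p = 0.039); this was lost in 3 of the 4 refits with 1 library left out and with all 37 libraries in 1 fit (adjusted p = 0.56).

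Between cell types and experiments, the radiation response of HUVEC differed from that of HAEC in 4 of 8 members, 2 higher and 2 lower (18% of all genes, 8.85% higher and 9.11% lower). The repeated doxorubicin experiment differed from the first in 3 of 9 members, 2 higher and 1 lower (4.42%, 2.59% and 1.83%). WI-38 cells differed from IMR-90 cells in 5 of 8 members after radiation, 4 higher and 1 lower (19.9%, 8.84% and 11.1%), and in 3 of 8 at late passage, 2 higher and 1 lower (11.9%, 4.6% and 7.29%).

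Another 4 lists of genes around AP-1 were followed through the same comparisons, and their counts are set beside the share of all genes called. Genes known as AP-1 targets were 20 of 24 higher and 0 lower with mutant HRAS, where 27.1% of all genes were higher and 18.9% lower, with a median log2 fold change of 1.87 against 0.07 for all genes tested. MMP3, the protease stromelysin-1, rose from a mean of 4.32 CPM to 3703 CPM (9.75 ± 0.19, adjusted p = 7.2e-11) and AREG, the growth factor amphiregulin, from 1.13 CPM to 61.0 CPM (5.74 ± 0.18, adjusted p = 1.5e-09). The summed fibroblast markers were also lower there, 1334 to 1487 CPM against 6560 to 7731 CPM, with 8 of 8 called lower. Of 7 endothelial markers 6 were called higher and 1, TEK, lower, and their sum was 13.5 to 15.99 CPM against 62.4 to 68.0 CPM. The part of either in the result was not tested.

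AP-1 targets also moved mostly upward in the second WI-38 set. After radiation 14 of 23 were higher and 1 lower (8.89% and 6.09% of all genes, median 0.90 against -0.06 for all genes), with IL6, an inflammatory cytokine, going from 6.37 CPM to 78.9 CPM. In exhaustion 10 of 23 were higher and 3 lower (5.8% and 6.82%, median 0.75 against 0.01), and MMP1, the interstitial collagenase, went from 69.2 CPM to 931 CPM (3.75 ± 0.23, adjusted p = 2.6e-07). In the doxorubicin repeat 8 were higher and 3 lower of 23 (3.18% and 2.26%, median 0.51 against 0.04). EZR, a membrane linker protein, was called lower in all 3.

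In irradiated endothelial cells AP-1 targets were called in both directions. Of 22 AP-1 targets tested, 8 were higher and 10 lower in irradiated HAEC (19.7% and 19.9% of all genes, median -0.13 against 0.01) and 7 higher and 9 lower in HUVEC (18.6% and 20.1%, median -0.16 against 0.01). MMP1 fell in HAEC from 5049 CPM to 421 CPM (by 3.58 ± 0.032 on the log2 scale, adjusted p = 6.2e-24) and in HUVEC from 762.3 CPM to 447 CPM (by 0.77 ± 0.039, adjusted p = 6.7e-14), and PLAUR, the urokinase receptor, fell in both, by 1.33 ± 0.040 and 0.71 ± 0.039. FOSL1 and JUN fell in the same cells while JUNB and JUND rose, and the part of any member in the changes of these targets was not tested. In the first doxorubicin experiment 9 of 24 targets were higher and 9 lower (13.6% and 13.2% of all genes, median 0.03 against 0.01), with IL6 at 2.45 CPM untreated and 23.2 CPM treated and MMP10, another stromelysin, at 4.93 and 1.39 CPM.

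In IMR-90 cells 16 of 23 targets were higher and 6 lower after radiation (26.6% and 22.5% of all genes, median 1.77 against -0.02) and 15 higher and 6 lower at PDL52 (26.6% and 23.5%, median 1.24 against -0.04). CCND1, cyclin D1, was at 105 CPM at PDL15, 1773 CPM after radiation and 1802 CPM at PDL52. CXCL8, the chemokine interleukin-8, went the other way, from 134 CPM to 3.88 and 1.77 CPM. The 2 PDL15 libraries thus held much CXCL8, FOS and JUNB and little CCND1 and FOSL1.

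**Figure D4:**
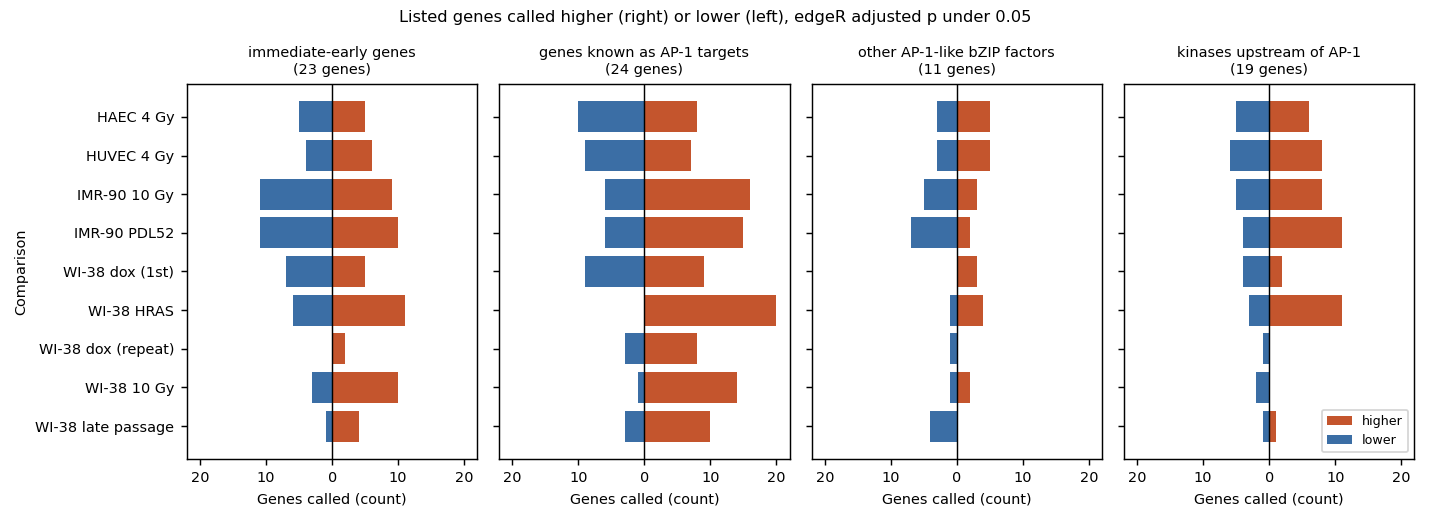
Number of genes called higher (to the right, orange) or lower (to the left, blue) in each of 4 lists (panels) and 9 comparisons (rows), edgeR adjusted p under 0.05. AP-1 targets have 20 of 24 genes higher and 0 lower with mutant HRAS, while immediate-early genes go both ways in most rows.

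Other immediate-early genes did not follow FOS as a block. With mutant HRAS 11 of 23 were higher and 6 lower (27.1% and 18.9% of all genes, median 0.51 against 0.07), from IER3 at 40.2 CPM to 458 CPM down to CCN1, a matrix protein gene, at 103 CPM to 41.7 CPM. In irradiated WI-38 cells 10 were higher and 3 lower (8.89% and 6.09%, median 0.84 against -0.06); NR4A2, an early-induced nuclear receptor, went from 1.88 CPM to 16.5 CPM and SRF, the serum response factor, from 94.7 CPM to 46.1 CPM. In IMR-90 cells 9 were higher and 11 lower after radiation (26.6% and 22.5%) and 10 higher and 11 lower at PDL52 (26.6% and 23.5%), with NR4A2 falling with FOS, from 28.6 CPM to 1.98 and 1.28 CPM. Counts in the remaining comparisons were 5 higher and 5 lower of 23 in HAEC, where 39.7% of all genes were called in either direction, 6 and 4 of 21 in HUVEC (38.7%), 5 and 7 of 23 in the first doxorubicin experiment (26.8%), 2 and 0 of 23 in its repeat (5.45%) and 4 and 1 of 23 in exhaustion (12.6%). The count in HAEC was close to that share. BTG2, an antiproliferative early gene, rose in both endothelial cell types, by 1.25 ± 0.056 in HAEC and 1.09 ± 0.052 in HUVEC.

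Among 11 other AP-1-like factors with a leucine zipper, MAFF and MAFK, small MAF proteins, rose in IMR-90 cells (MAFK from 17.8 CPM to 73.1 and 76.8 CPM), where 3 were higher and 5 lower after radiation (49.1% of all genes called) and 2 higher and 7 lower at PDL52 (50.1%). MAFF rose with mutant HRAS, from 37.2 CPM to 126 CPM (4 higher, 1 lower, 45.9% of all genes called), and fell in irradiated HAEC, from 68.5 CPM to 33.1 CPM (5 higher, 3 lower, 39.7%). ATF3, a stress-induced partner of JUN, rose in the first doxorubicin experiment from 4.94 CPM to 14.3 CPM (3 higher, 0 lower, 26.8%) and in irradiated WI-38 cells from 4.76 CPM to 24.0 CPM (2 higher, 1 lower, 15%). In exhaustion 4 were lower and 0 higher (12.6%), among them CREB5, from 27.8 CPM to 7.36 CPM; HUVEC had 5 higher and 3 lower (38.7%), and the doxorubicin repeat 0 higher and 1 lower (5.45%).

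Of 19 kinases upstream of AP-1, mutant HRAS had 11 higher and 3 lower, where 27.1% and 18.9% of all genes were, among them MAP2K1, the kinase MEK1, from 26.7 CPM to 51.9 CPM. MAP2K6, a p38-activating kinase, fell at both IMR-90 endpoints and in all 3 comparisons of the second WI-38 set, down to 0.243 CPM from 4.87 CPM in exhaustion, and rose in HUVEC from 8.97 CPM to 14.6 CPM. MAP2K3, which also activates p38, rose in IMR-90 cells from 6.03 CPM to 28.4 and 28.6 CPM and in exhausted WI-38 cells from 14.2 CPM to 34.2 CPM. The counts were 6 higher and 5 lower in HAEC, where 39.7% of all genes were called in either direction, 8 and 6 in HUVEC (38.7%), 8 and 5 in irradiated (49.1%) and 11 and 4 in PDL52 IMR-90 cells (50.1%). They were 2 and 4 with doxorubicin in the first experiment (26.8%), 0 and 1 in the repeat (5.45%), 0 and 2 in irradiated (15%) and 1 and 1 in exhausted WI-38 cells (12.6%), close to the shares of all genes.

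Over the 17 group means of log2 CPM, each centred on its set, FOS correlated with JUNB at r = 0.75 and with FOSB at 0.70, and FOSB with JUNB at 0.75. JUN correlated with FOSB at 0.62, with JUNB at 0.21 and with FOS at 0.095. FOSL1 correlated with FOSL2 at -0.63 and with FOS at -0.50. These are descriptions over points that share libraries within a set. Among 10844 other genes with an average log2 CPM of at least 1 in every set, those most like FOSL1 included RGMB-AS1 (r = 0.92) and CENPX (0.92), and the 3 most like FOSL2 were GPX4 (0.89), GPR173 (0.89) and CEBPD (0.86). JUN was closest to CDK5RAP1 (0.97), TRIM35 (0.92) and SUGP2 (0.92), JUNB to HOOK2 (0.95), which shares bases with it, ZNF691 (0.93) and COQ8A (0.86), and JUND to BLVRB (0.96), CORO1B (0.91) and ARVCF (0.91). FOS, FOSB, BATF and BATF3 were too low in some set to be ranked.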

How the data were processed

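RNA depleted of ribosomal RNA was sequenced from 37 libraries in 17 groups. The authors deposited raw counts per gene for each library; per the submitters' processing notes the tools were bcl2fastq, cutadapt, STAR 2.4 and featureCounts with the hg19 build, and with an annotation and strand setting not given in the sources used here. Of 57773 Ensembl identifiers, 51996 matched the gene name table given, and 52338 had a symbol from it or from GENCODE. Counts were tested with edgeR 4.0.16 (R 4.3.3): low-count genes removed by filterByExpr, TMM scaling, and a quasi-likelihood fit over all libraries of a set (HAEC, HUVEC, IMR-90, and each WI-38 set), with Benjamini-Hochberg adjustment over 27519 to 33612 genes. Differences between responses were contrasts in joint fits. CPM were counts over the library's total for the genes kept by the filter, with that total scaled by TMM within its set. Exon lengths came from GENCODE on GRCh38. Counts were simulated for the HAEC, HUVEC, irradiated IMR-90, first doxorubicin and irradiated WI-38 comparisons only. In each, 100 genes were changed 2-fold and 100 genes 4-fold. On these the fits recovered 42% to 86% of 2-fold changes and 84% to 100% of 4-fold changes. Far more genes were called in the real comparisons, which alters the adjusted p threshold, so the rates need not carry over. Each simulated gene took the spread usual at its level, so genes that vary more could be recovered less often. BATF had at most 26 counts in a library, so its precision is set by counting; the other members had at least 10.

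The members and the gene lists were chosen with earlier results of these data known. All members were named; from each list the text names only genes among the 2 called with the smallest adjusted p in each direction. The lists hold 11 AP-1-like factors, 19 kinases, 23 immediate-early genes and 24 AP-1 targets. Alternatives were DESeq2 1.42.0, its size factors in edgeR, no filter on low counts, the compared groups alone, all 37 libraries together, the replicate number as a block, and each library left out in turn. The 6 untreated libraries of the second WI-38 set as a joint control were added after seeing the data. Some genes that the naming rules select are not reported here.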

Additional observations from a re-analysis of the deposited data

Results flagged for a closer look

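The radiation responses of the 2 endothelial cell types were compared in 1 fit of their 11 libraries, as HUVEC minus HAEC. They differed in 4 of 8 members, where 18% of all genes did. The difference was 0.43 ± 0.11 on the log2 scale for FOSL1 (SE, edgeR adjusted p = 0.0059) and 0.26 ± 0.059 for JUN (adjusted p = 0.0017), both of which fell less in HUVEC. It was -0.44 ± 0.059 for FOSL2 (adjusted p = 2.2e-06), which rose in HAEC and was not called in HUVEC, and -0.34 ± 0.080 for JUND (adjusted p = 0.0032), which rose less in HUVEC. MKI67 also fell less in HUVEC (0.99 ± 0.057, adjusted p = 4.9e-13), and its part in the differences was not tested. The FOSL1 difference was lost without HAEC control replicate 1 (0.33, adjusted p = 0.092), and all 4 with all 37 libraries in 1 fit (adjusted p from 0.16 to 0.95).

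The 2 doxorubicin experiments in WI-38 cells differed in 3 of 9 members, where 4.42% of all genes did. As repeat minus first, FOSL1 differed by 1.62 ± 0.28 (adjusted p = 7.3e-04) and JUND by -1.96 ± 0.38 (adjusted p = 0.0023). BATF3 differed by 1.497 ± 0.41 (adjusted p = 0.041), which was lost in each of the 8 refits with 1 library left out (adjusted p from 0.076 to 0.19) and with DESeq2's size factors (1.47, adjusted p = 0.050). Without treated replicate 1 of the repeat, FOS (1.90, adjusted p = 0.044) and JUN (1.14, adjusted p = 0.032) also differed, and JUN did without its control replicate 1 (1.16, adjusted p = 0.047). The experiments belong to sets that differ in library totals and in the share of mitochondrial counts, so the experiment and the set cannot be told apart. CDKN1A, the p21 cell-cycle inhibitor, rose in the first experiment (1.72 ± 0.14, adjusted p = 2.3e-06) and was not called in the repeat (0.09 ± 0.21, adjusted p = 0.88). The untreated libraries of the repeat held CDKN1A at 1683 and 1983 CPM. Whether the level in the controls bears on this was not tested.

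Radiation at 10 Gy in WI-38 and IMR-90 cells gave opposite calls for FOS and JUNB, and the difference was called for 5 of 8 members, where 19.9% of all genes were. As WI-38 minus IMR-90 it was 8.82 ± 1.0 for FOS (adjusted p = 4.5e-06), 3.71 ± 0.46 for JUNB (adjusted p = 7.3e-06), 4.22 ± 1.3 for FOSB (adjusted p = 0.025), 1.16 ± 0.23 for FOSL2 (adjusted p = 0.0011) and -2.99 ± 0.27 for FOSL1 (adjusted p = 1.5e-07). The FOSB difference was lost without irradiated IMR-90 replicate 2 or WI-38 control replicate 2 (adjusted p = 0.053 and 0.052). JUN rose in both strains, in WI-38 cells from controls with the lowest mean JUN of all groups. MKI67 rose in irradiated IMR-90 cells and fell in irradiated WI-38 cells, a difference of -5.18 ± 0.41 (adjusted p = 3.2e-08). The WI-38 radiation controls held more MKI67 than the other untreated cells of their set, as given above. The part of MKI67 in these results was not tested.

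The late-passage responses of the same strains differed in 3 of 8 members, where 11.9% of all genes did. As WI-38 minus IMR-90 the difference was 5.54 ± 0.97 for FOS (adjusted p = 6.3e-04), 2.44 ± 0.45 for JUNB (adjusted p = 9.7e-04) and -0.93 ± 0.29 for JUN (adjusted p = 0.044). The JUN difference was lost in 7 of the 8 refits with 1 library left out (adjusted p from 0.10 to 0.17) and with DESeq2's size factors (adjusted p = 0.070). A difference in FOSB was called without exhausted WI-38 replicate 1 (4.33, adjusted p = 0.033) and with DESeq2 (3.85, adjusted p = 0.038). FOSL1 rose and FOSL2 fell in both strains. The 2 strains were sequenced in sets of unlike composition, so strain and set cannot be told apart.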

How the results depend on the processing

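No value of a member changed sign while called, under any alternative run. The 74 calls and non-calls compared under DESeq2's Wald test were the same in the 9 comparisons, as were the 74 under its size factors in edgeR. Counts of members called moved as follows. With all 37 libraries in 1 fit, irradiated HUVEC had 2 (5 in the fit of its set), replicative exhaustion 4 (2), the HUVEC and HAEC difference 0 (4), the difference of radiation and exhaustion 5 (3), the late-passage difference 5 (3) and irradiated against PDL52 IMR-90 cells 0 (1); irradiated IMR-90 cells had 5 (6), PDL52 cells 5 (7), mutant HRAS 6 (7), the HRAS and doxorubicin difference 5 (7) and the doxorubicin difference 4 (3). Without a filter on low counts the doxorubicin repeat had 3 (1), exhaustion 5 (2), the doxorubicin difference 6 (3) and the difference of radiation and exhaustion 6 (3). With all 6 untreated libraries as control the doxorubicin repeat had 4 (FOS, FOSB and JUNB higher, JUND lower) and exhaustion 5, and with the compared groups alone exhaustion had 4. The causes were not tested.

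With 1 library left out in turn, the members called numbered 5 to 6 in HAEC, 4 to 5 in HUVEC, 5 to 6 in irradiated and 6 to 7 in PDL52 IMR-90 cells, 2 to 3 in the first doxorubicin experiment, 5 to 8 with mutant HRAS, 1 to 3 in the doxorubicin repeat, 3 to 4 in irradiated and 2 to 3 in exhausted WI-38 cells. For the differences they numbered 3 to 4 (HUVEC and HAEC), 6 to 7 (HRAS and doxorubicin), 2 to 4 (doxorubicin experiments), 1 to 4 (radiation and exhaustion), 4 to 5 (radiation by strain), 2 to 4 (late passage by strain) and 0 to 1 (within IMR-90). Where this left 1 library in a group, that library was assumed to vary like the rest of its set.

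Replicate numbers are shared across groups, but nothing in the labels ties same-numbered libraries, and the main fits did not pair them. Over genes, deviations of same-numbered libraries correlated at 0.50 between mutant HRAS and empty vector. The correlation was 0.27 between irradiated and control WI-38 cells, and -0.17 to 0.060 in the other comparisons. Whether libraries with the same number shared a culture or batch was not tested. With a replicate block the counts of members called were 8 with mutant HRAS (7 without), 3 in exhaustion (2) and 4 in the late-passage difference (3): JUND was gained with HRAS and in exhaustion (0.045), and FOSL1 in the last (0.046). Crossing the numbers in exhaustion also gave 3. With the longest transcript as length, 75 of 153 shares moved by more than 1 SD. Libraries of a group varied most in the second WI-38 set (biological coefficient of variation 38.1%, against 5.69% in HAEC). There, 42% of the 2-fold changes simulated for the radiation comparison were called.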
